A study of Arabidopsis thaliana with 18 samples.

Results

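Trimethylation of lysine 27 of histone H3 (H3K27me3) covered 515 broad domains of the Arabidopsis thaliana nuclear genome in which neither H3K4me3 nor H3K9me2 was called. The domains were chosen from the authors' wild type (WT) peak lists. A peak was kept where it lay on chromosomes 1 to 5, was at least 4000 bp long and shared no base with an H3K4me3 or an H3K9me2 peak. Of 7240 nuclear H3K27me3 peaks, 790 reached 4000 bp and 515 of these met the rule, which is 7.11% of the peaks and 17.1% of the bases they cover. Being free of other marks therefore refers to those 2 marks and to peaks called in 1 library each.

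The libraries came from whole seedlings of ecotype C24, aged 10 days, of the pold2 mutant and of WT. Both genotypes grew without treatment at 22 °C on medium with sucrose and were lit for 23 h per day. The POLD2 gene encodes a subunit of the replicative enzyme DNA polymerase delta, and the labels give no allele name for the mutant. RNA was sequenced from 3 libraries per genotype, and the authors' deposited table gives 1 pooled FPKM (fragments per kilobase of transcript, scaled to library size) per genotype for each of 19858 genes. Chromatin immunoprecipitation has 1 WT library per mark, and the label of the H3K27me3 library names its antibody as one to H3K27. The pold2 ChIP and the bisulfite libraries were not analysed here, so nothing below says whether a domain was present in pold2.

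H3K27me3 is laid down by Polycomb repressive complex 2, whose catalytic subunits in Arabidopsis are CURLY LEAF, SWINGER and MEDEA. It marks genes that are silent or active in few cells, among them many regulators of flowers, seeds and meristems. H3K4me3 marks the start of active genes, and H3K9me2 marks silenced transposons. In a whole seedling a peak and a transcript can come from different cells, and fewer cells of a type cannot be told apart from less RNA per cell.

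The domains ranged in length from 4005 to 11818 bp, with a median of 4971 bp and quartiles of 4427 and 5903 bp. Beyond 6000 bp there were 121 domains, beyond 8000 bp 35 and beyond 10000 bp 9. The shortest members measured 4005, 4006 and 4006 bp, and the longest peaks left out for length alone measured 3997, 3996 and 3994 bp. The minimum thus cut through a continuous range of lengths. Another 275 peaks of at least 4000 bp were left out because they shared a base with H3K4me3 (168 peaks) or H3K9me2 (115 peaks), and 8 of these shared bases with both.

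**Figure D1:**
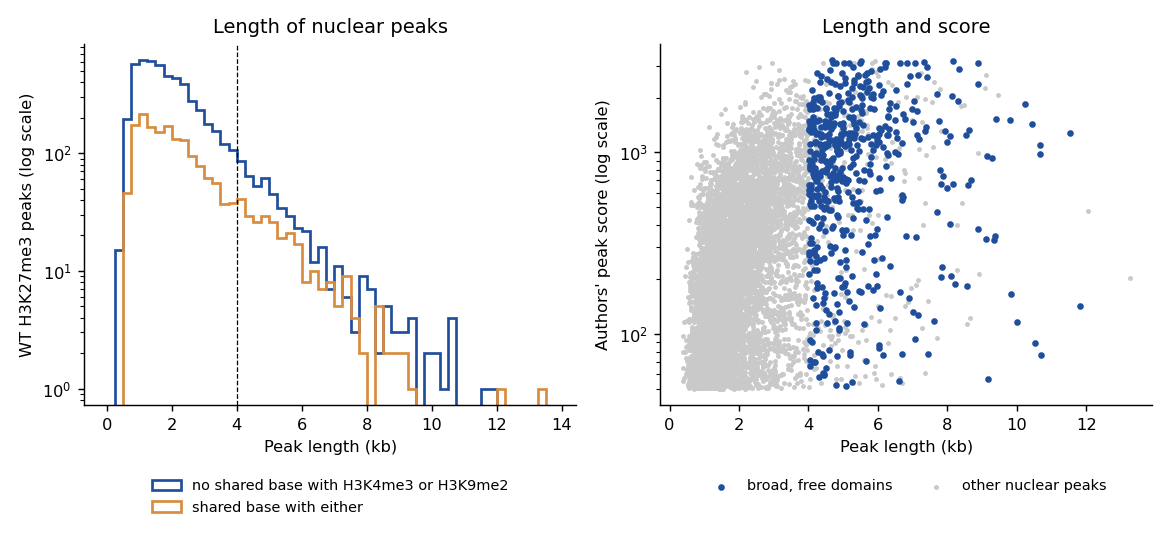
Left, number of WT H3K27me3 nuclear peaks (log scale) by length in kb, in blue for peaks that share no base with H3K4me3 or H3K9me2 and in orange for peaks that do, with the 4000 bp minimum dashed. Right, length in kb against the authors' peak score (log scale), with the 515 domains in dark blue and other nuclear peaks in grey; the domains run from the lowest to the highest scores.

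The score of a peak is the authors' value and ranks peaks within 1 list only. Domain scores ranged from 51.6 to 3201 with a median of 928, beside a median of 227 over all nuclear H3K27me3 peaks. Above that overall median stood 431 of the 515 domains (83.7%). Length said little about score among the domains (Spearman's rho 0.14 over 515 peaks of 1 library, given as a description). The 11 domains listed at exactly 3100 included those over AP1 and JAG, while the 10709 bp domain on chromosome 3 from 16307935 to 16318643 scored 76.3.

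Each chromosome carried a similar share of domains among its H3K27me3 peaks, from 6.21% on chromosome 2 (75 domains) to 7.69% on chromosome 5 (124 domains). Chromosome 1 had 135, chromosome 3 had 103 and chromosome 4 had 78. The next domain was a median of 61.6 kb away. There were also close neighbours, since 28 domains lay within 1000 bp of another one and 220 within 1000 bp of some other H3K27me3 peak.

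Although the domains share no base with H3K4me3, many ended near it. The nearest H3K4me3 peak was a median of 2119 bp away and at least 3 bp away, and 80 domains (15.5%) had one within 500 bp. H3K9me2 was far more distant, with a median gap of 35.5 kb and 12 domains with such a peak within 500 bp. Shorter H3K27me3 peaks free of both marks had median gaps of a similar order, 2.46 kb to H3K4me3 and 27.9 kb to H3K9me2. The rule sets the absence of overlap, and these gaps are a description.

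In gene content the domains fell into nearly equal parts, since 247 of the 515 domains (48.0%) touched no gene of the authors' deposited table. A gene counted as touched where the domain covered at least 1 bp of its locus. One listed gene was touched by 219 domains, 47 domains touched 2 and 2 domains touched 3. In all, 318 genes were touched, 314 of them protein-coding, and 178 (56.0%) lay wholly inside a domain. Of the remainder, 18 were covered over less than 10% of the locus. Loci in the table are merged where genes overlap, which concerned 14 of the 318, and they carry no strand or promoter.

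The table holds only genes with at least 0.501 FPKM in one genotype, so the domains without a listed gene need not be without genes. Gene order in RefSeq's table of assembly TAIR10.1 places at least 1 unlisted protein-coding gene between the listed genes that flank all but 13 of those 247 domains, with a median of 3. In 55 cases there was exactly 1 candidate. Regulators of development were among these single candidates, such as PRS (also WOX3), a homeobox gene of lateral leaf margins, PUCHI, an AP2-type gene of lateral root primordia, and FEZ, a NAC gene of root cap stem cells. YUC4, an auxin biosynthesis gene, the response regulator genes RR19 and RR20, and GA2OX7, for an enzyme that inactivates gibberellins, were single candidates too. No coordinate of that assembly was used, so it is not known which base of these genes lies under a domain, and these names were chosen after the results were seen.

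The longest domain, 11818 bp on chromosome 5 from 24786275 to 24798092 (score 142), was of this kind. Its unlisted candidates include ABCA9, ABCA11 and ABCA12, which encode ABC transporters of subfamily A. Further domains follow on the same chromosome, from 24801396 to 24808093 and from 24808278 to 24813696, and the second of these covers the listed gene ABCA10. The second longest, 11525 bp on chromosome 3 from 17611421 to 17622945, has ABCA5 and ABCA6 as its only candidates and starts 260 bp from the domain of ABCA4. Both places hold neighbouring ABCA genes and several domains close together. Of the 5 longest, only the third and the fourth touched a listed gene. AT3G44765 and AT3G44770 lay in the third, at 16307935 to 16318643 of chromosome 3. GA20OX2, a gibberellin biosynthesis gene, lay in the fourth (chromosome 5, 21046348 to 21057007, 10660 bp), and had 5.62 FPKM in pold2 and 5.17 FPKM in WT in the authors' deposited table (q = 0.694). The fifth (chromosome 1, 9784567 to 9795220, 10654 bp) has AT1G28080 as its only candidate.

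Touched genes were expressed at low levels in both genotypes. Their median was 2.88 FPKM in pold2 and 2.66 FPKM in WT in the authors' deposited table, against 12.1 FPKM in pold2 and 12.1 FPKM in WT over all listed genes. Below 1 FPKM in WT were 72 touched genes (22.6%), beside 5.85% of all listed genes. At 10 FPKM or more in WT were another 72 (22.6%), beside 55.3% of all listed genes. Genes at these low and high bounds were thus equal in number, and some transcripts under a domain were abundant. Domain score and WT FPKM were hardly related across the touched genes (Spearman's rho -0.01, genes of 1 pooled value each, given as a description).

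The set was then compared between pold2 and WT. POLD2 itself (chromosome 2, 17563157 to 17566032), which lies under no domain, had 2.83 FPKM in pold2 and 7.21 FPKM in WT in the authors' deposited table, 2.55-fold lower (q = 0.00103). A gene was called where the authors' q was under 0.05, adjusted over the whole table. By the authors' deposited table, 68 of the 318 touched genes (21.4%) were higher in pold2 and 24 (7.55%) were lower. Over all listed genes 5.97% were called higher, 6.47% lower and 12.4% in either direction. At an additional 2-fold minimum, 22 touched genes (6.92%) were higher and 5 (1.57%) lower, against 1.2% higher and 0.388% lower over all listed genes. The share called higher was thus above its background in both counts, and the share called lower was near it at q alone and above it at 2-fold. The 2-fold rises include genes under 0.5 FPKM in WT, among them TCP1, HDG4 and ABCA10, and such genes are listed only if higher in pold2. The 2-fold shares were not recomputed without them. An unadjusted p under 0.05 was held by 142 touched genes (44.7%) and by 24.0% of all listed genes.

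Shifts were mostly small. The median log2 ratio of FPKM plus 1 over the touched genes was 0.10, against -0.01 over all listed genes. Of the touched genes, 214 (67.3%) had the higher value in pold2, against 48.7% of all listed genes. The median called rise was 1.61-fold and the median called fall 1.56-fold in the authors' deposited table. Genes called higher had medians of 2.36 FPKM in pold2 and 1.53 FPKM in WT, while genes called lower had medians of 7.67 FPKM in pold2 and 12.7 FPKM in WT. By these medians, genes called higher were the less expressed ones in WT. Over all listed genes, too, the share called higher was largest under a mean of 1 FPKM and the share called lower largest at 20 FPKM or more.

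**Figure D2:**
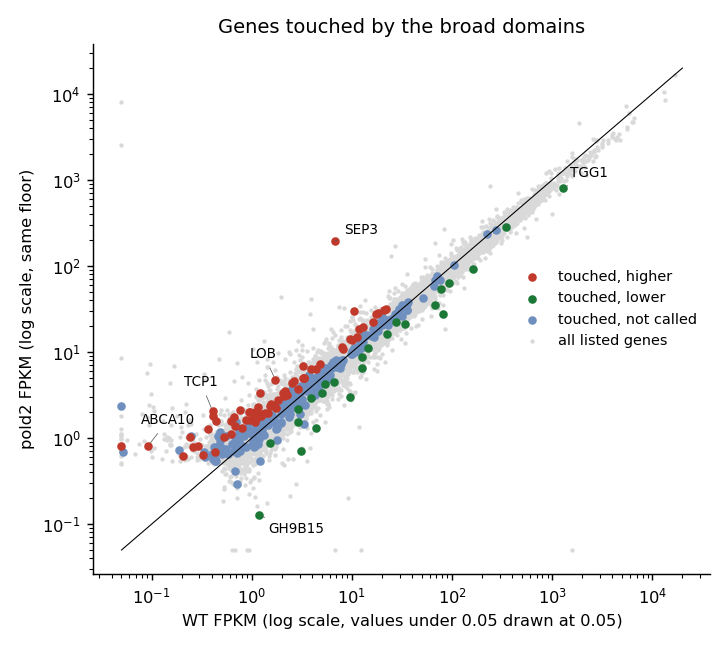
FPKM in pold2 against FPKM in WT (both log scales, values under 0.05 drawn at 0.05), 1 point per gene from the authors' deposited table. Touched genes are red where called higher in pold2, green where called lower and blue where not called, over all listed genes in grey, and the line marks equal values; SEP3 stands apart at 196 FPKM in pold2 and 6.79 FPKM in WT.

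The table's floor bears on low genes, since one under 0.5 FPKM in WT is listed only if it was higher in pold2. Of the touched genes 32 were of this kind, and 12 of them were called higher. Among the 286 touched genes with at least 0.5 FPKM in WT, 56 (19.6%) were called higher, against 5.55% of all listed genes at that level. Level also moves with calling, so genes were compared within bins of mean FPKM. In each of the 5 bins the share called higher was larger for touched genes than for all listed genes, from 18.3% against 11.5% under 1 FPKM, through 34.3% against 9.50% at 1 to 2 FPKM, to 14.6% (6 of 41 genes) against 3.88% at 20 FPKM or more. Among genes with a mean below 5 FPKM, 50 of 210 touched genes (23.8%) were higher and 9 (4.29%) lower, against 9.32% and 3.22% of all listed genes of that level. Calls of lower genes increased with level in both sets, up to 22.0% (9 of 41) of touched genes and 10.9% of all listed genes at 20 FPKM or more. In the lowest bins their shares were near the background and rested on few touched genes. These were 1 of 60 (1.67% against 1.38%) under 1 FPKM and 2 of 67 (2.99% against 2.32%) at 1 to 2 FPKM. In the bins from 2 FPKM up, lower calls were the more frequent among touched genes.

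**Figure D3:**
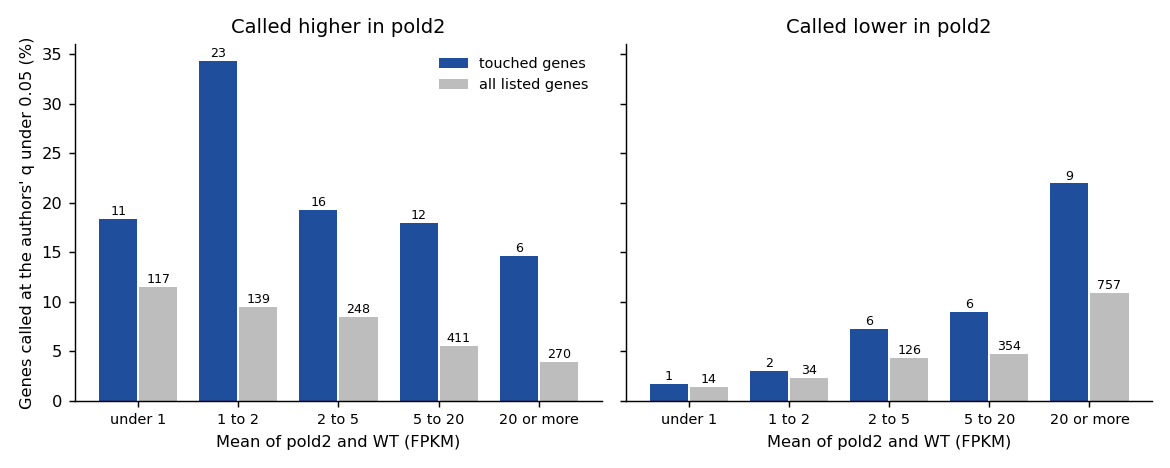
Percentage of genes called at the authors' q under 0.05 by bin of mean FPKM, left for genes called higher in pold2 and right for genes called lower; blue bars are touched genes, grey bars all listed genes, and the number called stands over each bar. The blue bar is the taller one in every bin, by the widest margin among rises at 1 to 2 FPKM (23 genes). Falls rest on 1 touched gene under 1 FPKM and on 2 at 1 to 2 FPKM, near the grey bars.

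Other genes under H3K27me3 had shares of the same order. Broad peaks that shared a base with H3K4me3 or H3K9me2 touched 167 genes, of which 23.4% were higher and 5.99% lower. Shorter peaks free of both marks touched 1741 genes, of which 16.8% were higher and 6.09% lower. Over the 16825 listed genes under no H3K27me3 peak, 4.05% were higher and 6.34% lower. Some genes are touched by more than one kind of peak, and the differences between these sets were not tested.

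The share of rises was highest under low-scoring domains, a difference that was not tested. The 32 domains with a score under 100 touched 26 genes, of which 11 (42.3%) were called higher and 1 lower, whereas the domains scoring 2000 or more touched 48 genes, of which 7 (14.6%) were higher and 4 lower. Loci under the low-scoring domains were also longer, with a median of 4461 bp against 2510 bp under the highest-scoring ones, and the part of locus length or score in the result was not tested. Without the domains scoring under 100, 58 of 293 touched genes (19.8%) were higher.

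Regulators of flower development included the largest rise among called genes. AT3G18330 had a larger ratio, with 2.33 FPKM in pold2 and 0.0397 FPKM in WT, but was not called (q = 0.54) in the authors' deposited table. SEP3, a MADS-box gene that acts in petal, stamen and carpel identity, had 196 FPKM in pold2 and 6.79 FPKM in WT in the authors' deposited table, 28.8-fold higher (q = 0.00103). Its locus (chromosome 1, 8593637 to 8596105) lies wholly in a domain of 4307 bp from 8593487 to 8597793, with the nearest H3K4me3 peak 2382 bp away. AP1, which directs floral meristem and sepal identity, was listed at 0.813 FPKM in pold2 and at 0 in WT in the authors' deposited table (q = 0.00103), so no fold is given. A gene at 0 in WT is listed only if it was higher in pold2. Its domain is 8869 bp long (chromosome 1, 25977688 to 25986556), more than the gene itself covers. STK, an ovule identity gene, had 0.696 FPKM in pold2 and 0.0519 FPKM in WT and was not called (q = 0.33) in the authors' deposited table.

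These 3 belong to a list of 18 floral MADS-box genes, of which 14 are listed, 10 were called higher and none lower. All of the 14 but SEP3 and SEP4 (9.78 FPKM in WT) were under 0.5 FPKM in WT, where only genes that were higher in pold2 are listed. A fall could therefore be seen only for SEP3 and SEP4. All 14 lay under some H3K27me3 peak, as did 3033 of all 19858 listed genes. Of the 14, the 11 besides these 3 lay under shorter peaks (9 genes) or broad peaks that share another mark (2 genes). Flower markers moved with SEP3. Of 11 such markers 8 are listed, SEP3 among them, their FPKM summed to 230 in pold2 and 8.27 in WT in the authors' deposited table (34.4 in pold2 and 1.48 in WT without SEP3), 5 were called higher, AG, SHP1 and SHP2 were not called, and the 3 unlisted ones are the anther genes SPL, MS1 and AMS. Apart from SEP3, each listed flower marker was under 0.5 FPKM in WT, where only genes that were higher in pold2 are listed. The part of floral tissue in the rise of SEP3 and AP1 was not tested. Of 23 genes that set flowering time, 19 are listed and 2 were touched. ATC, a relative of the inflorescence gene TFL1, had 27.7 FPKM in pold2 and 17.3 FPKM in WT in the authors' deposited table, 1.60-fold higher (q = 0.00103). TFL1 had 1.52 FPKM in pold2 and 0.698 FPKM in WT and was not called (q = 0.164) in the authors' deposited table. Of the 19 listed, 4 were higher and 8 lower. The background for the called counts of these lists is 5.97% higher and 6.47% lower over all listed genes.

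Homeobox regulators of meristems were the list with most touched members, 7 of 16 listed out of 22. STM, which keeps meristem cells undifferentiated, had 4.57 FPKM in pold2 and 2.65 FPKM in WT in the authors' deposited table, 1.73-fold higher (q = 0.00103). It lies in a domain of 5697 bp (chromosome 1, 23058508 to 23064204). KNAT2, another KNOX gene, had 1.62 FPKM in pold2 and 0.881 FPKM in WT in the authors' deposited table, 1.84-fold higher (q = 0.0124), with 49.3% of its locus covered. WOX1, WOX4, WOX11, WOX12 and BLH8 (also PNF) were touched and not called. Of these WOX4, a gene of the vascular cambium, had the highest level, 4.48 FPKM in pold2 and 3.48 FPKM in WT (q = 0.164), and WOX1 had 1.55 FPKM in pold2 and 1.54 FPKM in WT in the authors' deposited table (q = 0.99). Of the 16 listed members, 5 were higher and none lower at q under 0.05, beside 5.97% and 6.47% of all listed genes. Only STM and KNAT2 of these 5 were touched. ATH1 and BLH1 lay under no H3K27me3 peak, and BLR under a broad peak that shares another mark. An unadjusted p under 0.05 was held by 8 of 16, beside the 24.0% of all listed genes.

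Regulators of organ boundaries and leaf polarity had 4 touched members among 25 listed of 30. LOB, expressed at the base of lateral organs, had 4.75 FPKM in pold2 and 1.72 FPKM in WT in the authors' deposited table, 2.76-fold higher (q = 0.00103). AS2, JAG and MYB84 (also RAX3) were not called, with levels from 0.948 to 2.61 FPKM in pold2 and from 0.754 to 2.29 FPKM in WT in the authors' deposited table. Outside these lists, TCP1, of the TCP family, had 2.06 FPKM in pold2 and 0.406 FPKM in WT in the authors' deposited table, 5.08-fold higher (q = 0.00103). HDG4, a homeobox gene of the HD-ZIP IV class, had 1.81 FPKM in pold2 and 0.413 FPKM in WT in the authors' deposited table, 4.37-fold higher (q = 0.00103). Both started from under 0.5 FPKM in WT, the range where the table lists only genes that were higher in pold2.

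**Figure D4:**
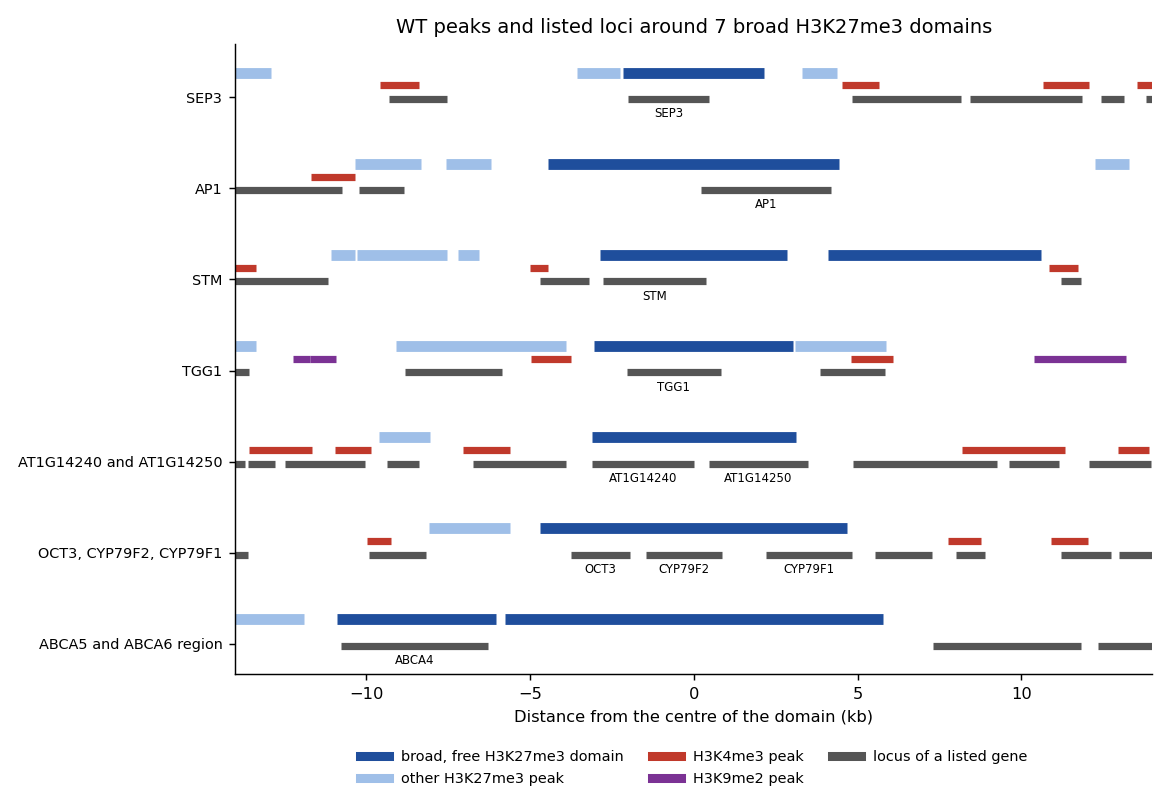
WT peaks and listed loci around 7 domains, by distance in kb from the centre of each domain; dark blue bars are broad domains free of other marks, light blue bars other H3K27me3 peaks, red H3K4me3 peaks, purple H3K9me2 peaks and grey the loci of listed genes, with touched genes named. SEP3 and STM occupy the left part of their domains, AP1 the right part, and the domain over the ABCA5 and ABCA6 region holds no listed locus and nearly meets that of ABCA4.

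Touched members of the embryo and seed list and of the root marker list were low and not called. ABI3, which drives seed maturation, had 0.634 FPKM in pold2 and 0.417 FPKM in WT (q = 0.0885), and PLT1, PLT2 and AIL5 (also PLT5), AP2-type genes of stem cell niches, had 0.675 to 1.53 FPKM in pold2 and 0.72 to 1.68 FPKM in WT in the authors' deposited table. Those 4 were the touched members of 13 listed embryo and seed genes, of which 5 were higher and none lower. Root markers had 4 touched members among 17 listed of 18, PLT1, PLT2, SHV2 (also COBL9) and EXPA7, the last 2 acting in root hairs, and none of the 4 was called. Root markers summed to 239 FPKM in pold2 and 208 FPKM in WT in the authors' deposited table, with 1 of 17 called higher. That one, the iron transporter gene IRT1, had 112 FPKM in pold2 and 77.3 FPKM in WT, and the other 16 summed to 128 FPKM in pold2 and 130 FPKM in WT in the authors' deposited table. Leaf markers, of which none was touched, summed to 39176 FPKM in pold2 and 43739 FPKM in WT, with 4 of 11 lower. The auxin list had 1 touched member, the carrier gene PIN6, with 1.92 FPKM in pold2 and 1.95 FPKM in WT (q = 0.966) in the authors' deposited table. Among the 15 listed genes of the auxin list none was higher and 2 were lower. The background for the called counts of these lists is 5.97% higher and 6.47% lower over all listed genes.

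Genes of the Polycomb machinery itself were mostly outside the mark, as were listed genes in general. Of 25 genes of the Polycomb complexes and their partners 22 are listed, 20 of them under no H3K27me3 peak. Of all 19858 listed genes, 16825 lay under no such peak. RING1B, a subunit of Polycomb repressive complex 1, was the touched one, at 8.19 FPKM in pold2 and 8.20 FPKM in WT in the authors' deposited table (q = 0.997), with 46.5% of its locus covered. No listed member was called at the authors' q under 0.05, 2 of 22 had an unadjusted p under 0.05, beside the 24.0% of all listed genes, and the median log2 ratio was -0.03. Of the H3K27 demethylase and Trithorax list none was touched. Among its 10 listed genes 1 was higher and 1 lower, beside 5.97% and 6.47% of all listed genes. MEA and VIN3, unlisted, lie between the listed genes that flank a domain each.

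Transporter and metabolic genes were among the remaining rises. By a grouping made after the values were seen, 11 touched genes carry an ABC transporter symbol, and 7 of them were higher and 2 lower, beside 25 higher and 5 lower among all 97 listed ones. Over all listed genes 5.97% were called higher and 6.47% lower. ABCA10 had 0.816 FPKM in pold2 and 0.0925 FPKM in WT in the authors' deposited table, 8.83-fold higher (q = 0.00404). ABCC10 was the most expressed of the 7, with 14.2 FPKM in pold2 and 9.63 FPKM in WT in the authors' deposited table, 1.47-fold higher (q = 0.00103). Also higher were ABCA4, ABCB13, ABCC6, ABCC7 and ABCC9, which rose by between 1.45-fold and 3.01-fold, going by the authors' deposited table. ABCA10 and ABCB13 started from under 0.5 FPKM in WT, the range where the table lists only genes that were higher in pold2. ABCB14 and ABCG31, at 1.28-fold and 1.32-fold lower, moved the other way, and ABCG15 and ABCG33 were not called. The domains of ABCB13, ABCC6, ABCC7 and ABCC10 had scores from 51.6 to 79.2, among the lowest, so this family and the low-scoring domains overlap. Other families grouped in the same way had few touched genes called. Among touched genes, 1 of 7 cytochrome P450 (CYP) and 1 of 5 NAC genes were higher and none lower. None of 7 MYB and 2 WRKY genes was called, and of 2 UMAMIT transporter genes 1 was lower. The LBD, bHLH and CASP-like symbols had no touched gene.

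Further rises named by size were those of AT1G65370, with 30.1 FPKM in pold2 and 10.4 FPKM in WT (2.89-fold), AT3G48770 (2.74-fold), AT1G17960 (2.81-fold), AT5G66150 (3.51-fold) and AT1G78780 (2.13-fold) in the authors' deposited table. AT1G78780 shares a merged locus with another gene and has 1.40% of it covered. VSP1, a jasmonate-inducible vegetative storage protein gene, had 1.57 FPKM in pold2 and 0.438 FPKM in WT in the authors' deposited table, 3.59-fold higher (q = 0.00264). At under 0.5 FPKM in WT, VSP1 and AT5G66150 could be listed only if they were higher in pold2. Among called genes picked after their values were seen, ICL, the isocitrate lyase gene of the glyoxylate cycle, had 18.7 FPKM in pold2 and 11.8 FPKM in WT, and LOX1, a lipoxygenase gene, had 31.4 FPKM in pold2 and 22.0 FPKM in WT in the authors' deposited table. These are genes of moderate level under domains that cover them wholly or in large part.

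**Figure D5:**
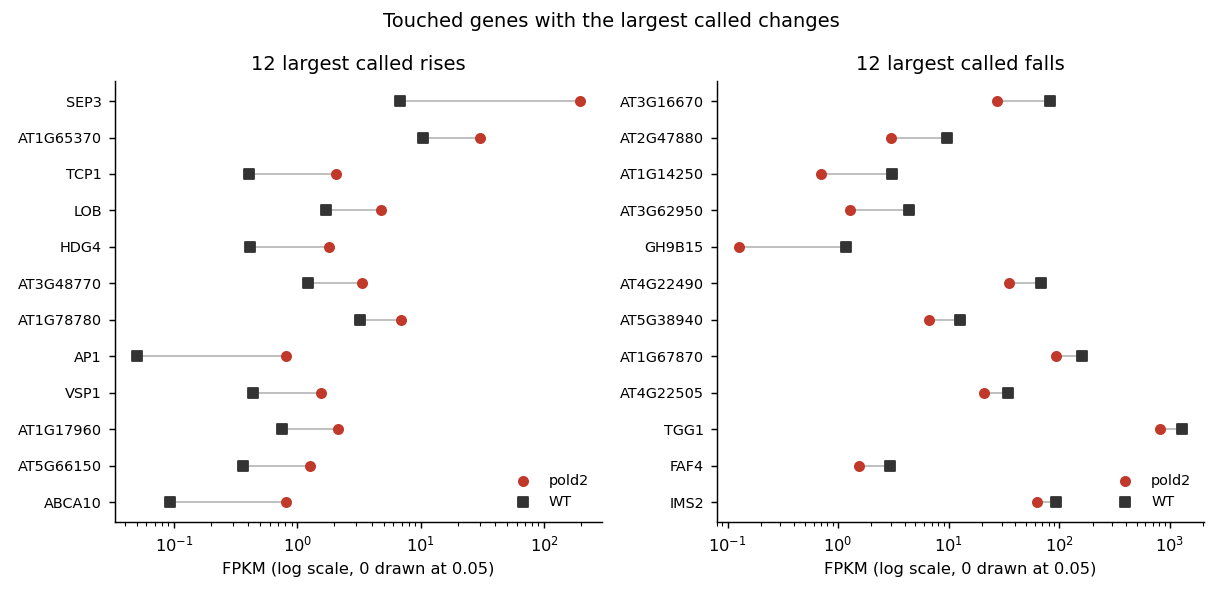
FPKM (log scale, 0 drawn at 0.05) in pold2 (red circles) and WT (black squares) of the 12 touched genes with the largest called rises, left, and the largest called falls, right, ordered by log2 ratio of FPKM plus 1. SEP3 has the largest ratio on that scale, and the falls include TGG1, at 806 FPKM in pold2 and 1290 FPKM in WT.

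Among the falls, TGG1 was the most expressed touched gene of all. TGG1 encodes a myrosinase, the enzyme that cleaves glucosinolates in guard cells and myrosin cells, and had 806 FPKM in pold2 and 1290 FPKM in WT in the authors' deposited table, 1.60-fold lower (q = 0.00103). It lies wholly inside a domain of 6069 bp (chromosome 5, 9078516 to 9084584, score 2880), and the nearest H3K4me3 peak is 716 bp away. FMA, a bHLH gene needed for both cell types and chosen after its value was seen, had 8.73 FPKM in pold2 and 12.7 FPKM in WT in the authors' deposited table, 1.46-fold lower (q = 0.00103). TGG1 thus combined a high transcript level with a high-scoring domain in these whole seedlings.

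Some touched genes act in glucosinolate synthesis. They were grouped after their values were seen, are not a full list of that pathway, and differed in direction and call. IMS2 (also MAM3), for chain elongation of methionine, had 62.9 FPKM in pold2 and 92.7 FPKM in WT in the authors' deposited table, 1.47-fold lower (q = 0.00103). BCAT4, which acts at the first step of that elongation, had 264 FPKM in pold2 and 277 FPKM in WT and was not called (q = 0.746) in the authors' deposited table. CYP79F1 and CYP79F2, which convert the elongated methionine, share a domain of 9376 bp with OCT3, an organic cation transporter gene (chromosome 1, 5601920 to 5611295). CYP79F1 had 238 FPKM in pold2 and 225 FPKM in WT (q = 0.705), and CYP79F2 had 13.2 FPKM in pold2 and 12.8 FPKM in WT (q = 0.853) in the authors' deposited table. OCT3 had 2.90 FPKM in pold2 and 3.90 FPKM in WT in the authors' deposited table, 1.35-fold lower (q = 0.0411). IGMT5, for a methyltransferase of indole glucosinolates, had 25.5 FPKM in pold2 and 19.9 FPKM in WT and was not called (q = 0.0941) in the authors' deposited table, and it shares a merged locus with another gene. Within the domain of OCT3, levels therefore spanned from 2.90 to 238 FPKM in pold2.

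On the log2 ratio of FPKM plus 1 the falls were led by AT3G16670, with 27.4 FPKM in pold2 and 81.8 FPKM in WT in the authors' deposited table (2.98-fold lower, q = 0.00103). AT2G47880 (3.19-fold), AT3G62950 (3.41-fold), AT5G38940 (1.93-fold) and AT1G67870 (1.74-fold) were lower in the authors' deposited table too. GH9B15, for a glycosyl hydrolase of family 9, had 0.127 FPKM in pold2 and 1.18 FPKM in WT in the authors' deposited table, 9.32-fold lower (q = 0.00772). FAF4, of a family that acts on shoot meristem size, had 1.54 FPKM in pold2 and 2.92 FPKM in WT in the authors' deposited table, 1.90-fold lower (q = 0.00719). VAG2, for a subunit of the vacuolar proton pump, was among the 6 highest genes in WT with 104 FPKM in pold2 and 106 FPKM in WT (q = 0.921) in the authors' deposited table, but only 8.53% of its locus is covered.

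Of the 87 domains with a called gene, 66 held a gene that was higher and 22 one that was lower, so 1 domain held both. That domain (chromosome 1, 4864887 to 4871102, 6216 bp) covers the neighbours AT1G14240 and AT1G14250. AT1G14240 had 1.97 FPKM in pold2 and 1.36 FPKM in WT in the authors' deposited table, 1.45-fold higher (q = 0.0426), while AT1G14250 had 0.699 FPKM in pold2 and 3.09 FPKM in WT, 4.42-fold lower (q = 0.00103). In the other 5 domains with at least 2 called genes, both genes moved the same way.

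Rises were paired in 3 of these 5. AT1G02190 and CER1, an alkane synthesis gene of leaf wax, share a domain of 5437 bp (chromosome 1, 414776 to 420212). AT1G02190 had 1.04 FPKM in pold2 and 0.242 FPKM in WT, and CER1 had 5.05 FPKM in pold2 and 3.35 FPKM in WT in the authors' deposited table (both q = 0.00103). At under 0.5 FPKM in WT, AT1G02190 could be listed only if it was higher in pold2. NADP-ME1, a malic enzyme gene, is the one gene touched by 2 domains, and shares the second (chromosome 2, 8594686 to 8600822) with AT2G19910. NADP-ME1 had 3.30 FPKM in pold2 and 2.06 FPKM in WT, and AT2G19910 had 2.46 FPKM in pold2 and 1.54 FPKM in WT in the authors' deposited table, which is higher by 1.61-fold and by 1.60-fold. AT3G44765 and AT3G44770, under the third longest domain, rose by 1.88-fold and by 2.17-fold, going by the authors' deposited table.

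Falls were paired in the other 2. AT4G22490 had 35.2 FPKM in pold2 and 68.3 FPKM in WT, and AT4G22505 had 20.9 FPKM in pold2 and 34.1 FPKM in WT in the authors' deposited table, both within a domain of 4976 bp (chromosome 4, 11849508 to 11854483). AT4G29020 had 282 FPKM in pold2 and 349 FPKM in WT, and AT4G29030 had 53.6 FPKM in pold2 and 77.8 FPKM in WT in the authors' deposited table, both within 4320 bp of chromosome 4 (14303751 to 14308070). The other domain that touches 3 listed genes (chromosome 3, 3050153 to 3058490, 8338 bp) covers the phosphate starvation RNA gene IPS1, AT3G09925 and MDHAR, and none was called. IPS1 had 1.45 FPKM in pold2 and 3.29 FPKM in WT in the authors' deposited table, a difference that missed the threshold (q = 0.078).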

How the data were processed

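The FPKM values, 1 per genotype, were pooled by the authors from 3 libraries each, per the file headers and the labels. The log2 fold change, p-value and q-value are those of the authors' deposited table, and calls used q under 0.05. The smallest q, 0.00103, is shared by 965 genes. Because replicates were pooled before deposit, read depth is unknown, no SD could be computed, and the labels do not say whether libraries came from separate cultures, so q may measure technical spread only. Peak positions and the score of each peak are as deposited by the authors, with MACS-type names per the files, from 1 library per mark. For the peak caller, the version and the control are not given in the sources read. The submitters' processing notes name Bowtie 0.12.9, TopHat2 2.1.1 and Cuffdiff 2.1.1 and the TAIR10 build, without roles.

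From these, overlaps were computed in pandas 2.3.3 on TAIR10 coordinates, read with the start base left out and the end base included. The same 515 domains came from bedtools 2.31.1. Positions are printed here counted from 1, and counting the peak overlaps from 1 also gave 515 domains. Overlaps and counts were tested on simulated intervals. Ratios computed here are log2((pold2 FPKM + 1)/(WT FPKM + 1)). Symbols came from RefSeq's TAIR10.1 table, which matched 19812 of 19858 identifiers. No sequence of the domains was used here, so the planned search for motifs was not run.

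The members and the 11 gene lists were chosen with earlier results of these data known. Genes named were POLD2, the listed genes of the 5 longest domains, the 12 largest called rises and falls, the 6 highest in WT, touched list members, and genes of the domains with most listed or at least 2 called genes. Others are said to be chosen later. Alternatives were other length minima, stricter peaks, gaps, overlap, q, level, fold, scaling and pseudocounts of 0.1 and 5.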

Additional observations from a re-analysis of the deposited data

Results flagged for a closer look

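One signal lay outside the nuclear rule. The authors' WT H3K27me3 list holds 31 peaks on the mitochondrial genome, which carries no nucleosomes as background knowledge. They were 780 to 9060 bp long, 8 of them at least 4000 bp, with a median score of 377 and a highest score of 2679, within the range of the domains. Input and H3 libraries were not analysed here, and a part of such signal in the nuclear domains was not tested.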

How the results depend on the processing

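No paired analysis was possible because the FPKM columns hold 1 pooled value per genotype, and leaving out a replicate was not possible for the same reason. Of 128 recomputed values of the named genes, 2 changed sign, those of the uncalled and nearly equal RING1B and SHV2 under median-ratio scaling, while 12 of 37 other values moved. A minimum of 3000 bp gave 1072 domains, with 128 genes higher and 38 lower, and 5000 bp gave 252 domains, with 36 higher and 8 lower. Other choices of peaks gave 425 to 654 domains. At 2-fold 22 genes were higher and 5 lower, and at q under 0.01 53 were higher and 15 lower. Below a mean of 5 FPKM, a bound added after seeing the data, 9 were lower. The median log2 ratio was 0.14 with a pseudocount of 0.1 and 0.049 with 5. Bounds on score, WT level and merged loci were also added after seeing the data and gave 56 to 66 genes higher. The limits are 1 library per mark, pooled RNA values, and a table without genes under its floor, so neither the spread of a domain's edges nor that of a gene's level is known.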
